A study of Mus musculus with 13 samples.

Results

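Checkpoint and repair genes were followed as a list of 51 mouse genes that sense damaged DNA, halt the cell cycle in response to it or mend it. Members were found by their symbols on an expression array, 50 of the 51 had a probe set carrying that 1 symbol, and Xrcc2 had no such entry. They stand among 19938 genes with such a probe set, of which 16721 passed the filter on dim signals, and all 50 measured members passed it. H2afx is annotated under its current symbol H2ax. Bard1 and Nbn had more than 1 probe set, and the one with the highest mean was used.

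The arrays came from enterocytes, the cells lining the gut, of mice on a 129/SVJ background. CKIalpha (casein kinase I alpha, gene Csnk1a1) phosphorylates β-catenin, the effector of Wnt signalling, and so primes it for destruction, and the knockout was specific to the gut. The 6 groups of 2 biological replicates were CKIalpha KO/p53 KO and CKIalpha Het/p53 KO, CKIalpha KO/p21 KO and CKIalpha Het/p21 KO, and CKIalpha KO and CKIalpha Het with p53 and p21 present. All 12 arrays thus come from mice that carry at least 1 knocked-out CKIalpha allele, no array has 2 intact copies, and the p53 and p21 knockouts are present in the Het controls of their own background as well. The labels name neither the Cre driver nor the ages, and do not say whether animals were pooled. 1 more array has labels that disagree, CKIalpha KO/p53 KO in the title and CKI KO in the genotype and source fields, and it entered no comparison.

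Broken or stalled DNA is detected by 2 kinases, ATM at double-strand breaks and ATR with its partner ATRIP at stretches of single-stranded DNA. They activate the checkpoint kinases CHK2 and CHK1, which delay the cell cycle, partly through p53 and its target p21. Repair then follows routes that depend on the lesion: homologous recombination, the Fanconi anaemia pathway for crosslinks, end joining, mismatch repair and excision repair. Many of these genes are known to be expressed mostly in dividing cells, which in the gut lie in the crypts, while absorptive enterocytes on the villi no longer divide. In whole-cell RNA of this kind, a change in the number of cells of a type and a change in the RNA per cell cannot be told apart.

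Members called higher without p53 are shown first by the start of their genes, since sequences bound by E2F factors, which drive genes of the S phase, are a known feature of several of them. RefSeq windows of 300 bases on GRCm38.p6, reaching 250 bases before and 50 after the annotated start, were held for 41 members. The letters TTTCGCGC, TTTGGCGC, TTTCCCGC or TTTGGCGG on either strand lay in 11 of the 41 windows (26.8%), against 2.7% of the windows of 27025 genes and 4.18% of those of 13169 genes tested on the arrays. Among the 17 members with a window that were called higher in CKIalpha KO/p53 KO, 7 held such letters (41.2%), against 4 of the other 24 (16.7%). Split by the call in the average over backgrounds, the letters lay in 6 of 20 members called higher (30%) and 5 of the other 21 (23.8%). The stretches of these 7 genes follow, each 5′ to 3′ on the strand of its gene, with the matching letters in capitals, and Clspn holds 2 of them.
Chek1 (chr9:36726609-36726630, minus strand): cgcaagcaggtTTTGGCGGgaa
Chek2 (chr5:110839820-110839849, plus strand): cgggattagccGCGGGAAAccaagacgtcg
Clspn (chr4:126556848-126556877, plus strand): gcagccgcaacCCGCCAAAccaacgcaaat
Clspn (chr4:126556990-126557019, plus strand): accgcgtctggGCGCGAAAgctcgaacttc
Topbp1 (chr9:103305187-103305216, plus strand): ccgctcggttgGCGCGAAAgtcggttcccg
Brca2 (chr5:150522442-150522471, plus strand): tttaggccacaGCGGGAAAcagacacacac
Bard1 (chr1:71103163-71103192, minus strand): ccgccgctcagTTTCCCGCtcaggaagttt
Msh6 (chr17:87975054-87975083, plus strand): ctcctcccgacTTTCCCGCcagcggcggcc
The match lies before the annotated start in Chek2, the first Clspn stretch, Topbp1, Brca2 and Bard1, and after it in Chek1, the second Clspn stretch and Msh6.

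The 250 bases before the start are printed for Clspn and Chek2, whose windows also hold the letters CCAAT, the core of the box bound by NF-Y, which many cell cycle genes share. Capitals mark the E2F letters and CCAAT or its reverse complement ATTGG.
Clspn (chr4:126556730-126556979, plus strand): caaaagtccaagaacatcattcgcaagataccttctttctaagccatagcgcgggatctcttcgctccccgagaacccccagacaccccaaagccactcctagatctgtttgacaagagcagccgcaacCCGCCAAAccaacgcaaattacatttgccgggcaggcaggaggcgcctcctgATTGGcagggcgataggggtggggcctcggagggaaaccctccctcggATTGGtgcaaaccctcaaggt
Chek2 (chr5:110839733-110839982, plus strand): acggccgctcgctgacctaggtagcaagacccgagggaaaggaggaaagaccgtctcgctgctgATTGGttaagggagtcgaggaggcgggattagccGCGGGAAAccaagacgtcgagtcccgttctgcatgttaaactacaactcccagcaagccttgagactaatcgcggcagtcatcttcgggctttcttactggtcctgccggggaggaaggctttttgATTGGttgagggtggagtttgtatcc
Each of the 2 windows holds 1 E2F match and 2 CCAAT matches on these bases. CCAAT on either strand lay in 23 of the 41 members (56.1%), against 41.1% of the 27025 genes, and in 8 of the 17 called higher without p53 (47.1%), against 15 of the other 24 (62.5%). The letters TTTGAA, the core of the CHR element of mitotic genes, lay in 4 of 41 (9.76%), against 20.2%, and a p53 half-site in 4 of 41 (9.76%), against 9.55%. None of these motifs contains another. These matches describe the letters of the windows, and binding was not measured.

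Values below are log2 intensities, differences are on the same log2 scale with the standard error of the limma fit (n = 2 arrays per group), and a gene is called at an adjusted p under 0.05 over all 16721 genes. The spread between replicates is pooled over the 6 groups. In CKIalpha KO/p21 KO the 2 arrays stood apart for these genes: replicate 2 was above replicate 1 for 47 of 50 members, by a median of 0.65, and was the highest of all 12 arrays for 39 of them, against 13.7% of all genes. The root mean square of the members' SDs between replicates was 0.468 in that group, and between 0.180 and 0.228 in the other 5. Medians over members that rest on this group are given with each of its arrays left out as well, and counts of called members in part. Its counts at an unadjusted p and its counts by role are given on all arrays only. They too moved with the array left out. Most of its counts of arrays that do not overlap are also given on all arrays only. Xist lay between 3.15 and 3.94 on replicate 1 arrays and between 8.91 and 10.1 on replicate 2 arrays of every group, the male and the female pattern, while the labels give no sex. The targeted gene Csnk1a1 lay between 10.44 and 10.80 on the 12 arrays and was called in no comparison, so its probe set does not check the genotype. All 19 measured markers of absorptive enterocytes lay above the array median on all 12 arrays, as did 37 of the 50 members. So did 8 of 15 lymphocyte, 4 of 14 myeloid, 7 of 13 fibroblast and 0 of 10 endothelial markers.

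With p53 knocked out, 20 of the 50 members were higher in CKIalpha KO/p53 KO than in CKIalpha Het/p53 KO and 1 was lower, against 11% and 6.82% of all genes (17.8% in either direction). In the ATR branch of the checkpoint, Clspn, Atr, Chek1, Topbp1 and Timeless were 2.19-fold to 2.74-fold higher, and Brca1, Blm and Xrcc5 2.59-fold to 3.00-fold higher. The median over members was 0.58, and that over all genes -0.06. For 41 members both CKIalpha KO/p53 KO arrays lay above both CKIalpha Het/p53 KO arrays, which held for 28.9% of all genes, and for 2 both lay below, against 35.7%. Within replicate 1 the median difference was 0.71 and within replicate 2 it was 0.50. The number of calls rested on single arrays: 0 members were higher without CKIalpha Het/p53 KO replicate 1 or CKIalpha KO/p53 KO replicate 2, 5 without CKIalpha Het/p53 KO replicate 2 and 4 without CKIalpha KO/p53 KO replicate 1, while the median stayed between 0.53 and 0.67.

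With p21 knocked out, 3 of the 50 members were higher in CKIalpha KO/p21 KO than in CKIalpha Het/p21 KO, namely Chek2, Polk and Ercc5, and 0 were lower, against 1.46% and 0.514% of all genes (1.97% in either direction). The median over members was 0.60, against -0.01 over all genes, and 33 were higher and 1 lower at an unadjusted limma p under 0.05, against 14% and 9.2% of all genes. Both CKIalpha KO/p21 KO arrays lay above both CKIalpha Het/p21 KO arrays for 40 members, against 26.9% of all genes, and below for 1, against 24.3%. Within replicate 1 the median was 0.21, with 44 of 50 above 0, and within replicate 2 it was 0.93, with 48 above 0. Without CKIalpha KO/p21 KO replicate 1 the calls were 33 higher with a median of 0.91, and without its replicate 2 they were 0 with a median of 0.27. Calls also fell to 0 without either array of CKIalpha Het/p21 KO, CKIalpha Het, CKIalpha KO/p53 KO or CKIalpha Het/p53 KO.

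With p53 and p21 present, 0 of 50 members were called in CKIalpha KO against CKIalpha Het, against 0.0239% of all genes. At an unadjusted limma p under 0.05, 1 was higher (Gadd45g) and 2 were lower (Ddb2 and Gadd45b), against 5.57% and 3.52% of all genes. The median over members was 0.03, beside 0.02 over all genes, and single members ranged from -0.43 to 0.75. Both CKIalpha KO arrays lay above both CKIalpha Het arrays for 8 members, against 22.3% of genes, and below for 4, against 16.8%.

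**Figure D1:**
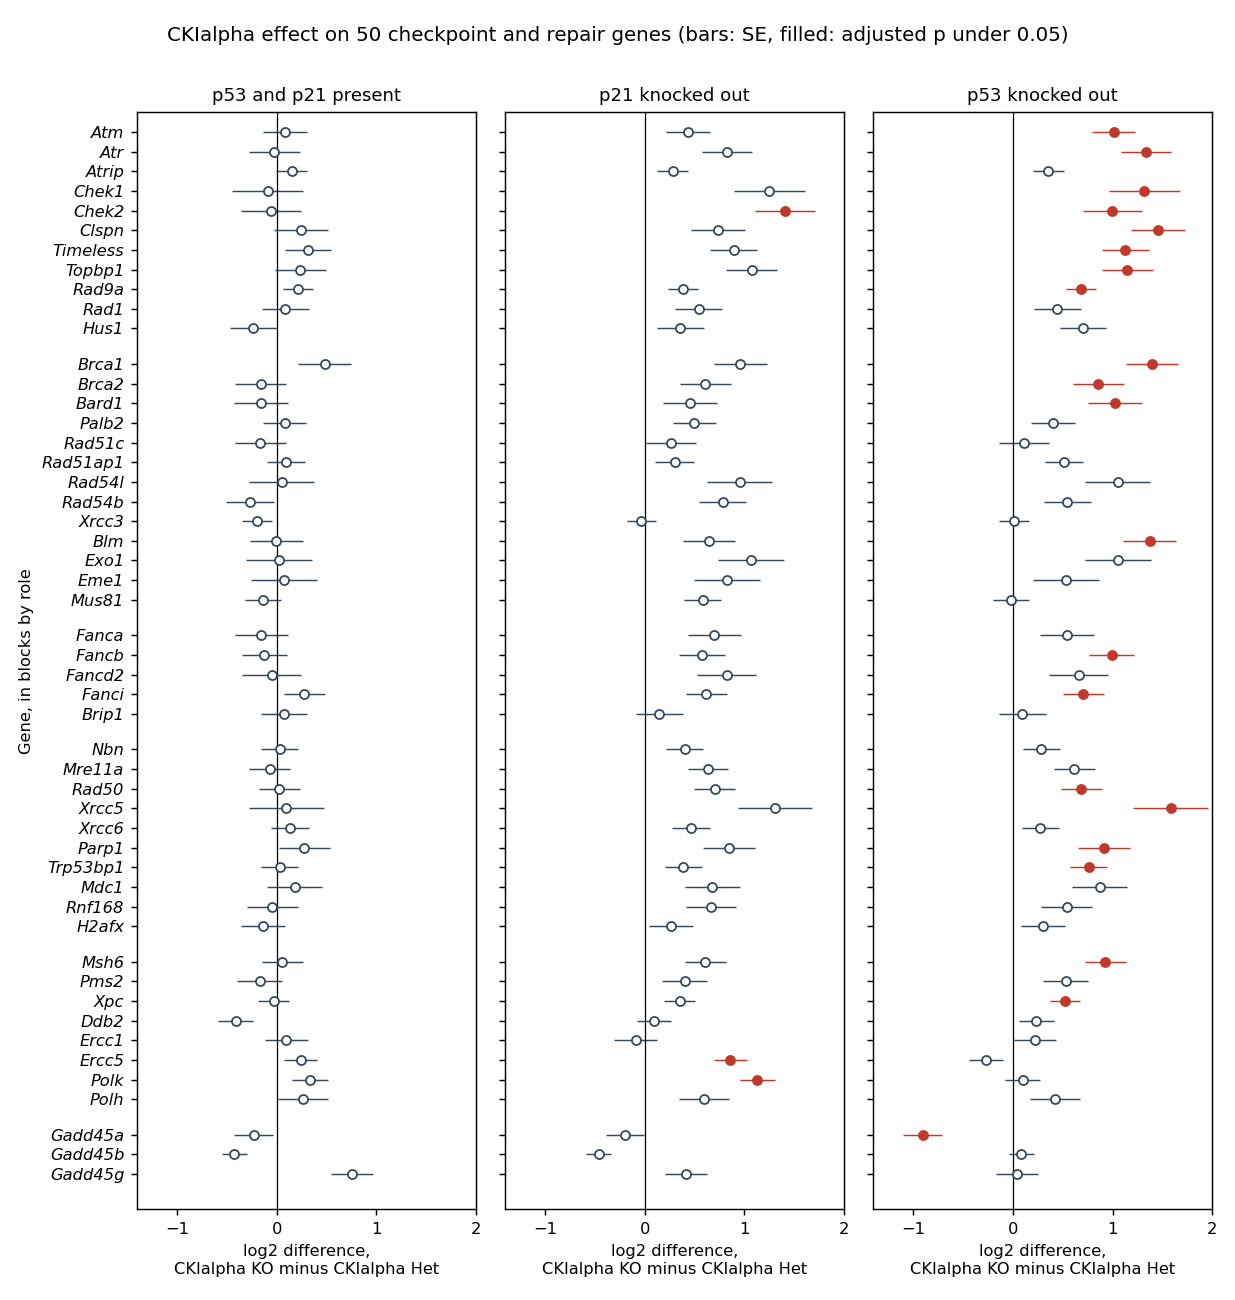
Log2 difference of CKIalpha KO minus CKIalpha Het for each of the 50 members, in 3 panels by background, with genes down the page in blocks by role. Bars are standard errors of the fit and filled red points passed an adjusted p under 0.05; points lie around 0 with p53 and p21 present and mostly to the right of 0 in the other panels, where 3 and 21 are filled.

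The difference between backgrounds was tested as an interaction. The CKIalpha effect without p53 minus that with both genes had a median of 0.65 over members, with 0 of 50 called, against 0.0179% of all genes, and 22 higher and 2 lower at an unadjusted limma p under 0.05, against 7.97% and 6.9%. The effect without p21 minus that with both genes had a median of 0.56, with 0 called, against 0% of all genes, and 12 higher and 0 lower at an unadjusted p under 0.05, against 4.34% and 3.79%. That median was 0.85 without CKIalpha KO/p21 KO replicate 1 and 0.22 without its replicate 2. The effect without p53 minus that without p21 had a median of 0.07, with 0 called, against 0.012%, and 1 higher and 4 lower unadjusted, against 3.89% and 4.82%. This median turned with the array left out, to -0.24 without CKIalpha KO/p21 KO replicate 1 and 0.35 without its replicate 2. The response of the members was therefore not shown to differ between backgrounds gene by gene. Averaged over the 3 backgrounds, 24 members were higher in KO and 2 lower, against 15.5% and 8.96% of all genes. Higher calls were 13 without CKIalpha Het/p21 KO replicate 2, 14 without CKIalpha Het replicate 1 or CKIalpha KO replicate 2, and up to 36 without CKIalpha KO/p21 KO replicate 1, and the lower ones were 0 to 2 with 1 array left out. On 2 members, Topbp1 and Fanci, all 6 KO arrays lay above all 6 Het arrays, against 3.74% of genes. For 27 of the 50 members the 4 double knockout arrays lay above the other 8 arrays, against 6.65% of genes. Without CKIalpha KO/p21 KO replicate 1 this held for 32 members, against 13.9% of genes, and without its replicate 2 for 27, against 6.85%.

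Of all genes, 11% were called higher without p53 and 1.46% without p21, shares to be read beside the counts of each role below. Checkpoint genes were the role with the most calls: 8 of 11 were higher in CKIalpha KO/p53 KO, with a median of 1.01, and 1 of 11 in CKIalpha KO/p21 KO, with a median of 0.74. The medians of this role and the next 4 without p21 lay between 0.73 and 1.17 without CKIalpha KO/p21 KO replicate 1 and between 0.23 and 0.30 without its replicate 2. Clspn encodes claspin, the adaptor through which ATR activates CHK1. It read 6.29 and 6.61 on the CKIalpha KO/p53 KO arrays, against 4.75 and 5.25 on the CKIalpha Het/p53 KO arrays. Without p21 it read 5.92 and 6.79 on the CKIalpha KO/p21 KO arrays, against 5.66 and 5.58 on the CKIalpha Het/p21 KO arrays. Both double knockouts lay above their own controls on each array, and the difference was 1.45 ± 0.27 without p53 (2.74-fold, adjusted p = 0.0109) and 0.74 ± 0.27 without p21 (adjusted p = 0.145). With both genes present Clspn read 5.48 and 5.43 on the CKIalpha KO arrays, against 5.06 and 5.37 on the CKIalpha Het arrays, and these ranges do not overlap, by a small margin.

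Topbp1 encodes the protein that switches on ATR at stalled forks. It read 8.80 and 8.81 on the CKIalpha KO/p53 KO arrays, against 7.48 and 7.84 on the CKIalpha Het/p53 KO arrays. With p21 knocked out, the values were 8.50 and 9.38 on the CKIalpha KO/p21 KO arrays, against 7.84 and 7.89 on the CKIalpha Het/p21 KO arrays, and with both genes 7.90 and 8.0 on the CKIalpha KO arrays, against 7.55 and 7.88 on the CKIalpha Het arrays. KO and Het were separate in each background, with 1.15 ± 0.25 without p53 (adjusted p = 0.0174), 1.07 ± 0.25 without p21 (adjusted p = 0.0588) and 0.24 ± 0.25 with both genes (adjusted p = 0.862). Timeless, a fork protection factor, read 6.44 and 6.77 on the CKIalpha KO/p53 KO arrays, against 5.37 and 5.58 on the CKIalpha Het/p53 KO arrays. On the p21 KO background the readings were 5.87 and 6.62 on the CKIalpha KO/p21 KO arrays, against 5.35 and 5.35 on the CKIalpha Het/p21 KO arrays, and with both genes 5.54 and 5.35 on the CKIalpha KO arrays, against 4.99 and 5.27 on the CKIalpha Het arrays. KO lay above Het on every array of each background. It was 2.19-fold higher without p53 (1.13 ± 0.24, adjusted p = 0.0145), and its difference without p21 was 0.89 ± 0.24 (adjusted p = 0.0703).

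Rad9a belongs with Rad1 and Hus1 to the ring-shaped clamp loaded at damage sites. It read 6.47 and 6.50 on the CKIalpha KO/p53 KO arrays, against 5.88 and 5.72 on the CKIalpha Het/p53 KO arrays. In the absence of p21 it stood at 6.29 and 6.66 on the CKIalpha KO/p21 KO arrays, against 6.12 and 6.07 on the CKIalpha Het/p21 KO arrays, and with both genes 6.22 and 6.07 on the CKIalpha KO arrays, against 5.90 and 5.95 on the CKIalpha Het arrays. No KO array of Rad9a fell among the Het arrays of its own background, and the difference without p53 was 0.68 ± 0.15 (adjusted p = 0.0167). Its partners in the clamp did not pass, with 0.45 ± 0.24 for Rad1 (adjusted p = 0.209) and 0.70 ± 0.23 for Hus1 (adjusted p = 0.0633).

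The effector kinases Chek1 and Chek2 are given array by array as well, a choice made after their values were seen. Chek1 read 7.00 and 6.51 on the CKIalpha KO/p53 KO arrays, against 5.55 and 5.33 on the CKIalpha Het/p53 KO arrays. The arrays lacking p21 gave 6.43 and 7.38 on the CKIalpha KO/p21 KO arrays, against 6.01 and 5.29 on the CKIalpha Het/p21 KO arrays, and with both genes 5.14 and 5.50 on the CKIalpha KO arrays, against 5.09 and 5.72 on the CKIalpha Het arrays. The double knockouts lay above all other arrays, while the CKIalpha KO arrays overlapped their controls. Its difference passed without p53 (1.32 ± 0.36, adjusted p = 0.0324) and not without p21 (1.25 ± 0.36, adjusted p = 0.0822). Chek2 read 7.04 and 7.74 on the CKIalpha KO/p21 KO arrays, against 6.24 and 5.71 on the CKIalpha Het/p21 KO arrays. Without p53 it read 7.20 and 6.75 on the CKIalpha KO/p53 KO arrays, against 6.09 and 5.86 on the CKIalpha Het/p53 KO arrays, and with both genes 6.07 and 6.72 on the CKIalpha KO arrays, against 6.57 and 6.33 on the CKIalpha Het arrays. Chek2 was the member that passed in both backgrounds, 2.66-fold higher without p21 (1.41 ± 0.30, adjusted p = 0.0485) and 2.00-fold without p53 (1.00 ± 0.30, adjusted p = 0.0459). Both calls lay near the threshold: that without p21 held in 5 of 19 alternative fits and that without p53 in 8 of 19. Of the upstream kinases, Atr was 2.52-fold higher without p53 (adjusted p = 0.0112) and Atm 2.02-fold (adjusted p = 0.016), and ATR's partner Atrip was at 0.36 ± 0.16 (adjusted p = 0.14).

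**Figure D2:**
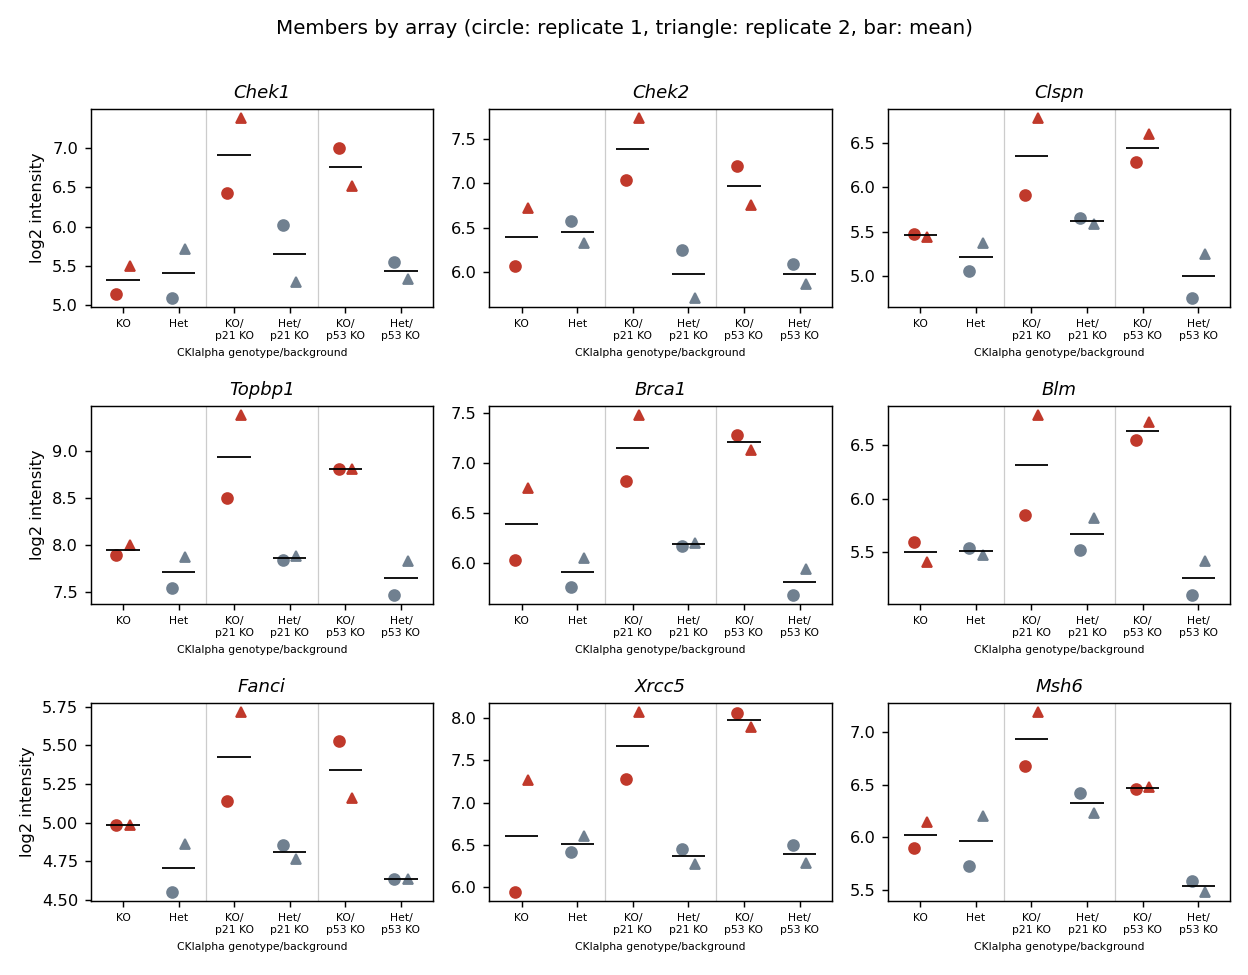
Log2 intensity of 9 members on each of the 12 arrays, by CKIalpha genotype and background, with circles for replicate 1, triangles for replicate 2 and bars for the mean of a group. The double knockouts lie above their Het controls in every panel, and replicate 2 of CKIalpha KO/p21 KO is the highest array of each panel.

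Of 13 recombination genes, 4 were higher without p53 (median 0.55) and 0 were called without p21 (median 0.61). Brca1, which with Bard1 directs broken ends into recombination, read 7.28 and 7.13 on the CKIalpha KO/p53 KO arrays, against 5.68 and 5.94 on the CKIalpha Het/p53 KO arrays. Without p21 it read 6.82 and 7.48 on the CKIalpha KO/p21 KO arrays, against 6.17 and 6.20 on the CKIalpha Het/p21 KO arrays, and with both genes 6.03 and 6.74 on the CKIalpha KO arrays, against 5.76 and 6.05 on the CKIalpha Het arrays. The groups did not overlap in the backgrounds that lack p53 or p21, and the CKIalpha KO arrays reached from within the CKIalpha Het range to above it. Brca1 was 2.63-fold higher without p53 (1.40 ± 0.26, adjusted p = 0.0113), its partner Bard1 2.04-fold (adjusted p = 0.0302) and Brca2, a mediator of recombination, 1.81-fold (adjusted p = 0.0454). Blm, the helicase that dissolves recombination intermediates, read 6.55 and 6.72 on the CKIalpha KO/p53 KO arrays, against 5.11 and 5.42 on the CKIalpha Het/p53 KO arrays. With p21 knocked out, the values were 5.85 and 6.78 on the CKIalpha KO/p21 KO arrays, against 5.53 and 5.82 on the CKIalpha Het/p21 KO arrays, and with both genes 5.60 and 5.41 on the CKIalpha KO arrays, against 5.54 and 5.48 on the CKIalpha Het arrays. It was 2.59-fold higher without p53 (adjusted p = 0.0115), and the 2 groups without p21 were separated by only a small gap.

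Exo1, a nuclease that trims broken ends and serves mismatch repair, read 6.37 and 5.92 on the CKIalpha KO/p53 KO arrays, against 5.18 and 5.01 on the CKIalpha Het/p53 KO arrays. On the p21 KO background the readings were 5.81 and 6.95 on the CKIalpha KO/p21 KO arrays, against 5.57 and 5.05 on the CKIalpha Het/p21 KO arrays, and with both genes 5.09 and 5.04 on the CKIalpha KO arrays, against 4.88 and 5.20 on the CKIalpha Het arrays. The double knockouts lay above their controls and the groups with both genes overlapped. Differences of 1.05 ± 0.33 and 1.07 ± 0.33 missed the threshold (adjusted p = 0.0535 and 0.1), and the average over backgrounds passed (0.71 ± 0.19, adjusted p = 0.0236). Rad54l, a DNA-dependent motor protein of recombination, read 7.36 and 7.08 on the CKIalpha KO/p53 KO arrays, against 6.08 and 6.26 on the CKIalpha Het/p53 KO arrays. In the absence of p21 it stood at 6.78 and 7.98 on the CKIalpha KO/p21 KO arrays, against 6.47 and 6.38 on the CKIalpha Het/p21 KO arrays, and with both genes 6.12 and 6.09 on the CKIalpha KO arrays, against 5.79 and 6.31 on the CKIalpha Het arrays. Its arrays fell out in the same way. It likewise passed in the average (0.68 ± 0.19, adjusted p = 0.026) and not in one background (adjusted p = 0.051 without p53 and 0.123 without p21). The remaining recombination members, among them the recombination factors Rad51c and Xrcc3 and the nuclease subunits Mus81 and Eme1, were called in no comparison of KO with Het. Xrcc3 had the smallest differences of these, -0.03 ± 0.15 without p21 and 0.01 ± 0.15 without p53.

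Of the 5 Fanconi anaemia genes 2 were higher without p53 (median 0.66) and 0 were called without p21 (median 0.62). Fanci, which forms the clamp on crosslinked DNA with Fancd2, read 5.53 and 5.16 on the CKIalpha KO/p53 KO arrays, against 4.63 and 4.64 on the CKIalpha Het/p53 KO arrays. The arrays lacking p21 gave 5.14 and 5.72 on the CKIalpha KO/p21 KO arrays, against 4.85 and 4.77 on the CKIalpha Het/p21 KO arrays, and with both genes 4.99 and 4.99 on the CKIalpha KO arrays, against 4.55 and 4.86 on the CKIalpha Het arrays. Every KO array lay above every Het array, and the difference passed without p53 (0.71 ± 0.20, adjusted p = 0.041). Fancd2 itself read 5.76 and 5.57 on the CKIalpha KO/p53 KO arrays, against 4.96 and 5.04 on the CKIalpha Het/p53 KO arrays. Without p21 it read 5.45 and 6.37 on the CKIalpha KO/p21 KO arrays, against 5.25 and 4.92 on the CKIalpha Het/p21 KO arrays, and with both genes 5.02 and 4.79 on the CKIalpha KO arrays, against 4.62 and 5.28 on the CKIalpha Het arrays. It was separate from its controls in both double knockouts and passed in neither (adjusted p = 0.144 without p53 and 0.136 without p21).

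Fancb, a subunit of the ligase that marks the FANCI and FANCD2 pair with ubiquitin, read 5.68 and 5.48 on the CKIalpha KO/p53 KO arrays, against 4.54 and 4.63 on the CKIalpha Het/p53 KO arrays. With p21 knocked out, the values were 5.18 and 5.96 on the CKIalpha KO/p21 KO arrays, against 4.97 and 5.01 on the CKIalpha Het/p21 KO arrays, and with both genes 4.40 and 4.66 on the CKIalpha KO arrays, against 4.54 and 4.77 on the CKIalpha Het arrays. The double knockouts were the 4 highest arrays, and the difference without p53 was 1.99-fold (adjusted p = 0.0198). Fanca, another subunit of that ligase, read 6.78 and 6.74 on the CKIalpha KO/p53 KO arrays, against 6.16 and 6.27 on the CKIalpha Het/p53 KO arrays. On the p21 KO background the readings were 6.36 and 7.21 on the CKIalpha KO/p21 KO arrays, against 5.92 and 6.25 on the CKIalpha Het/p21 KO arrays, and with both genes 6.22 and 5.65 on the CKIalpha KO arrays, against 6.09 and 6.09 on the CKIalpha Het arrays. Fanca was called in none of these (smallest adjusted p = 0.156, without p21), and the helicase gene Brip1 differed by 0.10 ± 0.23 without p53 and 0.14 ± 0.23 without p21.

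Break sensing, end joining and chromatin genes numbered 10, of which 4 were higher without p53 (median 0.65) and 0 were called without p21 (median 0.65). Xrcc5 encodes Ku80, which with Ku70 (Xrcc6) caps broken ends for joining. It read 8.06 and 7.89 on the CKIalpha KO/p53 KO arrays, against 6.51 and 6.28 on the CKIalpha Het/p53 KO arrays. In the absence of p21 it stood at 7.28 and 8.07 on the CKIalpha KO/p21 KO arrays, against 6.46 and 6.28 on the CKIalpha Het/p21 KO arrays, and with both genes 5.95 and 7.27 on the CKIalpha KO arrays, against 6.42 and 6.61 on the CKIalpha Het arrays. Its difference without p53 exceeded that of any other member, 3.00-fold (1.58 ± 0.37, adjusted p = 0.0215), while its CKIalpha KO replicates lay far apart, 1 below and 1 above both controls. Xrcc6 was at 0.28 ± 0.19 (adjusted p = 0.325).

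Parp1, the enzyme that marks breaks with poly(ADP-ribose), read 7.69 and 7.47 on the CKIalpha KO/p53 KO arrays, against 6.56 and 6.77 on the CKIalpha Het/p53 KO arrays. The arrays lacking p21 gave 7.36 and 7.99 on the CKIalpha KO/p21 KO arrays, against 7.02 and 6.65 on the CKIalpha Het/p21 KO arrays, and with both genes 7.00 and 7.12 on the CKIalpha KO arrays, against 6.45 and 7.10 on the CKIalpha Het arrays. The difference passed without p53 (0.92 ± 0.26, adjusted p = 0.0377), where the arrays did not overlap. Rad50, the long coiled-coil subunit of the complex with Mre11a and Nbn that tethers ends, read 7.76 and 7.72 on the CKIalpha KO/p53 KO arrays, against 7.09 and 7.02 on the CKIalpha Het/p53 KO arrays. Without p21 it read 7.47 and 8.14 on the CKIalpha KO/p21 KO arrays, against 7.22 and 6.98 on the CKIalpha Het/p21 KO arrays, and with both genes 7.17 and 7.34 on the CKIalpha KO arrays, against 7.12 and 7.34 on the CKIalpha Het arrays. It passed without p53 (0.68 ± 0.21, adjusted p = 0.0465), and its partners did not, with 0.62 ± 0.20 for Mre11a (adjusted p = 0.062) and 0.28 ± 0.19 for Nbn (adjusted p = 0.305).

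Trp53bp1, whose protein favours end joining over recombination, read 6.48 and 6.30 on the CKIalpha KO/p53 KO arrays, against 5.37 and 5.89 on the CKIalpha Het/p53 KO arrays. With p21 knocked out, the values were 6.35 and 6.66 on the CKIalpha KO/p21 KO arrays, against 6.18 and 6.06 on the CKIalpha Het/p21 KO arrays, and with both genes 6.30 and 6.30 on the CKIalpha KO arrays, against 6.24 and 6.30 on the CKIalpha Het arrays. The difference passed without p53 (0.76 ± 0.18, adjusted p = 0.0231), where the CKIalpha Het/p53 KO arrays were the lowest of the 12 and the CKIalpha KO/p53 KO arrays lay near those of CKIalpha KO and CKIalpha Het. Its partners at damaged chromatin were not called in that background: the scaffold Mdc1 was at 0.87 ± 0.27 (adjusted p = 0.0536), the ubiquitin ligase Rnf168 at 0.54 ± 0.25 (adjusted p = 0.161) and the histone H2afx at 0.30 ± 0.22 (adjusted p = 0.362).

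Mismatch repair, excision repair and lesion bypass genes were divided. Of the 8, 2 were higher without p53 (Msh6 and Xpc, median 0.33) and 2 without p21 (Polk and Ercc5, median 0.50). Msh6, which recognises mismatched bases, read 6.46 and 6.47 on the CKIalpha KO/p53 KO arrays, against 5.59 and 5.49 on the CKIalpha Het/p53 KO arrays. On the p21 KO background the readings were 6.68 and 7.19 on the CKIalpha KO/p21 KO arrays, against 6.42 and 6.24 on the CKIalpha Het/p21 KO arrays, and with both genes 5.90 and 6.15 on the CKIalpha KO arrays, against 5.73 and 6.20 on the CKIalpha Het arrays. The difference passed without p53 (0.93 ± 0.21, adjusted p = 0.0174), where the controls were the lowest arrays. Xpc, the damage sensor of global excision repair, read 6.55 and 6.23 on the CKIalpha KO/p53 KO arrays, against 5.87 and 5.87 on the CKIalpha Het/p53 KO arrays. In the absence of p21 it stood at 6.07 and 6.33 on the CKIalpha KO/p21 KO arrays, against 5.95 and 5.75 on the CKIalpha Het/p21 KO arrays, and with both genes 5.99 and 6.10 on the CKIalpha KO arrays, against 6.09 and 6.07 on the CKIalpha Het arrays. It was 1.44-fold higher without p53 (adjusted p = 0.0429), and the groups with both genes overlapped.

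Polk and Ercc5 differed from the rest. Polk encodes a DNA polymerase that copies across damaged bases, and it read 7.12 and 7.44 on the CKIalpha KO/p21 KO arrays, against 6.05 and 6.26 on the CKIalpha Het/p21 KO arrays. With p53 knocked out, the values were 5.85 and 5.71 on the CKIalpha KO/p53 KO arrays, against 5.65 and 5.71 on the CKIalpha Het/p53 KO arrays, and with both genes 6.23 and 6.59 on the CKIalpha KO arrays, against 6.20 and 5.95 on the CKIalpha Het arrays. The CKIalpha KO/p21 KO arrays were the highest of the 12 and the 4 arrays without p53 the lowest. Polk was 2.18-fold higher without p21 (1.13 ± 0.18, adjusted p = 0.033) and differed by 0.10 ± 0.18 without p53 (adjusted p = 0.72). Ercc5 encodes XPG, the nuclease that cuts 3′ of a lesion in excision repair, and it read 7.93 and 8.03 on the CKIalpha KO/p21 KO arrays, against 7.10 and 7.14 on the CKIalpha Het/p21 KO arrays. Without p53 it read 6.58 and 6.90 on the CKIalpha KO/p53 KO arrays, against 7.10 and 6.92 on the CKIalpha Het/p53 KO arrays, and with both genes 7.16 and 7.49 on the CKIalpha KO arrays, against 7.19 and 6.98 on the CKIalpha Het arrays. Here the CKIalpha KO/p21 KO arrays were again the highest, and the CKIalpha KO/p53 KO arrays were the lowest. Ercc5 was 1.81-fold higher without p21 (0.86 ± 0.17, adjusted p = 0.0465), and its difference without p53 was -0.27 ± 0.17 (adjusted p = 0.283). The test of the difference between the backgrounds passed for neither (Polk -1.03 ± 0.25, adjusted p = 0.346, and Ercc5 -1.13 ± 0.24, adjusted p = 0.229).

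Set directly against each other, CKIalpha KO/p53 KO was lower than CKIalpha KO/p21 KO for these 2 members and higher for 0, against 0.215% and 0.114% of all genes. Both CKIalpha KO/p53 KO arrays lay below both CKIalpha KO/p21 KO arrays for 6 members, against 16.5% of genes, and above them for 0, against 18.4%. Polk was 2.84-fold lower (-1.50 ± 0.18, adjusted p = 0.0105) and Ercc5 2.36-fold lower (-1.24 ± 0.17, adjusted p = 0.0208). Neither passed when only the groups compared were fitted (adjusted p = 0.431 for Polk and 0.479 for Ercc5). Without CKIalpha KO/p53 KO replicate 2, Polk had an adjusted p of 0.0772 and Ercc5 one of 0.0527, and Ercc5 also missed without CKIalpha KO/p53 KO replicate 1 (0.0693) or CKIalpha KO/p21 KO replicate 1 (0.0505). The median over members was -0.07 and turned with the array left out, to 0.22 without CKIalpha KO/p21 KO replicate 2 and -0.37 without its replicate 1. Within replicate 1, 42 of 50 members were higher in CKIalpha KO/p53 KO, and within replicate 2, 3 of 50. Polh, another bypass polymerase, read 5.66 and 5.88 on the CKIalpha KO/p21 KO arrays, against 5.27 and 5.09 on the CKIalpha Het/p21 KO arrays. With p53 knocked out, the values were 6.05 and 5.39 on the CKIalpha KO/p53 KO arrays, against 5.15 and 5.44 on the CKIalpha Het/p53 KO arrays, with both genes 5.26 and 5.87 on the CKIalpha KO arrays, against 5.31 and 5.29 on the CKIalpha Het arrays, and it was not called (adjusted p = 0.193 without p21 and 0.254 without p53).

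The 3 Gadd45 genes encode small stress proteins that bind kinases and cell cycle regulators, and Gadd45a is a known p53 target. They did not follow the other roles. Gadd45a read 7.91 and 7.96 on the CKIalpha KO/p53 KO arrays, against 8.94 and 8.73 on the CKIalpha Het/p53 KO arrays. The arrays lacking p21 gave 8.74 and 8.12 on the CKIalpha KO/p21 KO arrays, against 8.65 and 8.61 on the CKIalpha Het/p21 KO arrays, and with both genes 8.33 and 8.43 on the CKIalpha KO arrays, against 8.52 and 8.70 on the CKIalpha Het arrays. The CKIalpha KO/p53 KO arrays were the lowest of the 12. It was 1.87-fold lower without p53 (-0.91 ± 0.19, adjusted p = 0.0152), the single member called lower in that comparison, and the call was lost without any 1 array of that background (adjusted p between 0.0538 and 0.0923). Gadd45b read 7.38 and 7.22 on the CKIalpha KO arrays, against 7.73 and 7.72 on the CKIalpha Het arrays. Without p21 it read 7.48 and 7.43 on the CKIalpha KO/p21 KO arrays, against 7.92 and 7.92 on the CKIalpha Het/p21 KO arrays, and without p53 7.36 and 7.27 on the CKIalpha KO/p53 KO arrays, against 7.31 and 7.14 on the CKIalpha Het/p53 KO arrays. The KO arrays were below the controls in the first 2 of these backgrounds, and only the average passed (-0.27 ± 0.07, adjusted p = 0.0249), a call lost without any 1 of 8 arrays (adjusted p up to 0.0656). Gadd45g read 7.53 and 7.66 on the CKIalpha KO arrays, against 7.08 and 6.61 on the CKIalpha Het arrays. With p21 knocked out, the values were 7.13 and 6.92 on the CKIalpha KO/p21 KO arrays, against 6.59 and 6.65 on the CKIalpha Het/p21 KO arrays, and without p53 6.71 and 7.18 on the CKIalpha KO/p53 KO arrays, against 7.07 and 6.72 on the CKIalpha Het/p53 KO arrays. It was higher in the average (0.40 ± 0.12, adjusted p = 0.0385), which missed the threshold with quantile normalization (adjusted p = 0.094), with array weights (0.0558) and without any 1 of 8 arrays (up to 0.0999), and its difference with both genes did not pass (0.75 ± 0.21, adjusted p = 0.286).

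**Figure D3:**
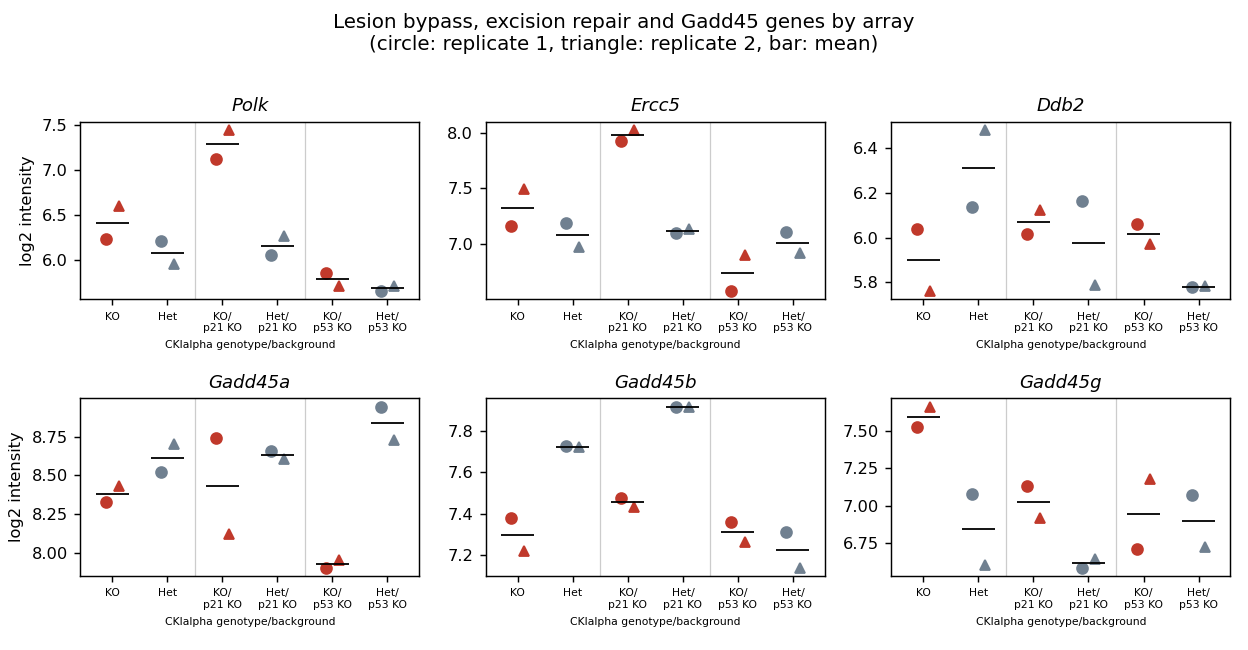
Log2 intensity of Polk, Ercc5, Ddb2 and the 3 Gadd45 genes on each of the 12 arrays, by CKIalpha genotype and background, with circles for replicate 1, triangles for replicate 2 and bars for the group mean. Polk and Ercc5 are highest in CKIalpha KO/p21 KO, and Gadd45a is lowest in CKIalpha KO/p53 KO.

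Adding a p53 or p21 knockout to CKIalpha KO gave no call among members in the fit of 12 arrays. CKIalpha KO/p53 KO against CKIalpha KO had 0 of 50 called, against 0.466% of genes higher and 0.227% lower (0.694% in either direction), with a median of 0.47 and, at an unadjusted limma p under 0.05, 24 higher and 4 lower, against 12.9% and 9.43% of genes. Both CKIalpha KO/p53 KO arrays lay above both CKIalpha KO arrays for 34 members, against 23.8% of genes. Within replicate 1 the median difference was 0.57 and within replicate 2 it was 0.34, and with the replicate number, which the Xist pattern follows, as a replicate block 2 members were called higher. CKIalpha KO/p21 KO against CKIalpha KO had 0 called, against 0.0239% higher and 0.012% lower (0.0359% in either direction), with a median of 0.58 and 30 higher and 1 lower unadjusted, against 7.2% and 4.79%. That median was 0.91 without CKIalpha KO/p21 KO replicate 1 and 0.28 without its replicate 2, and 25 members were called higher without replicate 1. In CKIalpha KO/p53 KO against CKIalpha KO, 16 members were called higher without either array of CKIalpha KO/p21 KO, a group that enters this comparison only through the pooled spread. These comparisons share the CKIalpha KO arrays with each other.

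In the heterozygous gut the same knockouts called no member. CKIalpha Het/p53 KO against CKIalpha Het had a median of -0.08 and 0 of 50 called, against 0% of genes, with 0 higher and 4 lower at an unadjusted limma p under 0.05, against 3.33% and 2.3%. Both CKIalpha Het/p53 KO arrays lay below both CKIalpha Het arrays for 15 members, against 16.9% of genes, and above them for 5, against 24.8%. CKIalpha Het/p21 KO against CKIalpha Het had a median of 0.06 and 0 called, against 0.00598% of genes, with 0 in either direction unadjusted, against 2.51% higher and 2.49% lower. Both CKIalpha Het/p21 KO arrays lay above both CKIalpha Het arrays for 13 members, against 15.9% of genes, and below them for 7, against 20.5%. The 2 comparisons share the CKIalpha Het arrays.

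A list of 80 other measured repair genes had smaller medians than the members for CKIalpha KO against CKIalpha Het, both without p53 and without p21. Without p53, 23 were higher in CKIalpha KO/p53 KO and 1 lower, against 11% and 6.82% of all genes, with a median of 0.38. The highest ranked by p were Ercc8, a factor of transcription-coupled repair (0.81 ± 0.12, adjusted p = 0.00763), Rif1, a partner of the Trp53bp1 protein (1.39 ± 0.23, adjusted p = 0.00803), Rfc1, the large subunit of the clamp loader (1.40 ± 0.26, adjusted p = 0.0109), and Paxip1, a BRCT-domain protein of the damage response (0.86 ± 0.16, adjusted p = 0.0114). Tdp2, which removes trapped topoisomerase from DNA ends, was lower (-0.57 ± 0.13, adjusted p = 0.0175). Without p21, 2 of the 80 were higher and 0 lower, against 1.46% and 0.514% of all genes, with a median of 0.30. That median was 0.47 without CKIalpha KO/p21 KO replicate 1 and 0.15 without its replicate 2. The 2 genes were Mgmt, which strips alkyl groups from guanine (0.96 ± 0.16, adjusted p = 0.0336), and Fen1, the flap nuclease (1.22 ± 0.25, adjusted p = 0.0481). Mgmt was also lower in CKIalpha KO/p53 KO than in CKIalpha KO/p21 KO (-0.93 ± 0.16, adjusted p = 0.0486), as Polk and Ercc5 were. With both genes present 0 of the 80 were called, against 0.0239% of all genes.

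Genes of dividing cells moved with the members. Of all genes, 11% were higher without p53 and 1.46% without p21. Of 20 replication genes, 10 were higher without p53 and 1 without p21, with medians of 1.00 and 0.85, and of 19 mitosis genes 13 and 4, with medians of 1.08 and 1.02. Without CKIalpha KO/p21 KO replicate 1 the medians without p21 were 1.33 and 1.46, with 18 genes of each list called, and without its replicate 2 they were 0.41 and 0.55, with 0 called. In both lists the double knockout arrays had the highest mean log2 levels. For replication genes the mean spanned 7.69 to 7.81 on the CKIalpha KO/p53 KO arrays, against 6.63 to 6.87 on CKIalpha Het/p53 KO, and 7.39 to 8.29 on CKIalpha KO/p21 KO, against 6.85 to 7.13 on CKIalpha Het/p21 KO. With both genes it spanned 6.69 to 6.79 on CKIalpha KO and 6.58 to 7.00 on CKIalpha Het, and 0 members of either list were called there. Of 13 crypt base markers, 9 were higher without p53 and 2 without p21, against 11% and 1.46% of all genes, with medians of 1.48 and 1.18. With both genes 0 of these 13 markers were called, with a median of 0.38 and 10 above 0. In the average over backgrounds 10 markers were higher and 1, Olfm4, was lower (-1.31 ± 0.35, adjusted p = 0.0242), against 15.5% and 8.96% of all genes. On the p21 KO background 9 were called without CKIalpha KO/p21 KO replicate 1 and 0 without its replicate 2.

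Markers of absorptive cells went the other way: 11 of 19 were lower without p53 (median -0.69), against 6.82% of all genes. Without p21, 0 of the 19 were called lower (median -0.42), against 0.514%. The median of these markers without p21 was -1.13 without CKIalpha KO/p21 KO replicate 1 and -0.02 without its replicate 2. Their mean level spanned 10.45 to 10.83 on CKIalpha KO/p53 KO arrays, against 12.16 to 12.27 on CKIalpha Het/p53 KO, and 10.66 to 11.98 on CKIalpha KO/p21 KO, against 11.91 to 11.93 on CKIalpha Het/p21 KO. With both genes it spanned 11.44 to 11.71 on CKIalpha KO and 11.86 to 12.26 on CKIalpha Het. CKIalpha KO/p21 KO replicate 2, the array highest for most members, was also the one with the lower absorptive level and the higher replication level of its group. The part of proliferation and of the mix of cells in the members' differences was not tested.

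Lymphocyte markers spanned 5.75 to 6.54 on CKIalpha KO/p21 KO, against 7.01 to 7.58 on CKIalpha Het/p21 KO, with a median difference of -1.26. At an adjusted p under 0.05, 0 of 15 were called. At an unadjusted limma p under 0.05, 14 were lower and 0 higher, against 9.2% and 14% of all genes. The markers had a median of -1.62 without CKIalpha KO/p21 KO replicate 1 and -0.77 without its replicate 2. Without p53 they spanned 5.98 to 6.93 on CKIalpha KO/p53 KO, against 6.18 to 7.06 on CKIalpha Het/p53 KO, with 0 called. Their part was not tested either. Without p53, 2 of 12 myeloid markers were higher (Cd68 and Cd14, median -0.03), as was 1 of 12 fibroblast markers (Vim, median -0.07), against 11% of all genes. In each of these lists 4 of 12 markers had a difference above 0. Among 9 endothelial markers 1 was lower (Eng, median -0.06), against 6.82% of all genes. Without p21, 0 of each list were called (medians -0.28, -0.55 and 0.01).

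A list of 26 p53 targets, which shares Ercc5 with the members, had 12 higher and 0 lower without p21, against 1.46% and 0.514% of all genes. Without p53 it had 1 higher and 1 lower, against 11% and 6.82%. The medians of the targets were 0.63 without p21 and -0.16 without p53. Without CKIalpha KO/p21 KO replicate 2, 2 were called higher on the p21 KO background. In CKIalpha KO/p53 KO against CKIalpha KO/p21 KO, 8 of the 26 were lower and 0 higher, against 0.215% and 0.114% of all genes, with a median of -0.92.

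**Figure D4:**
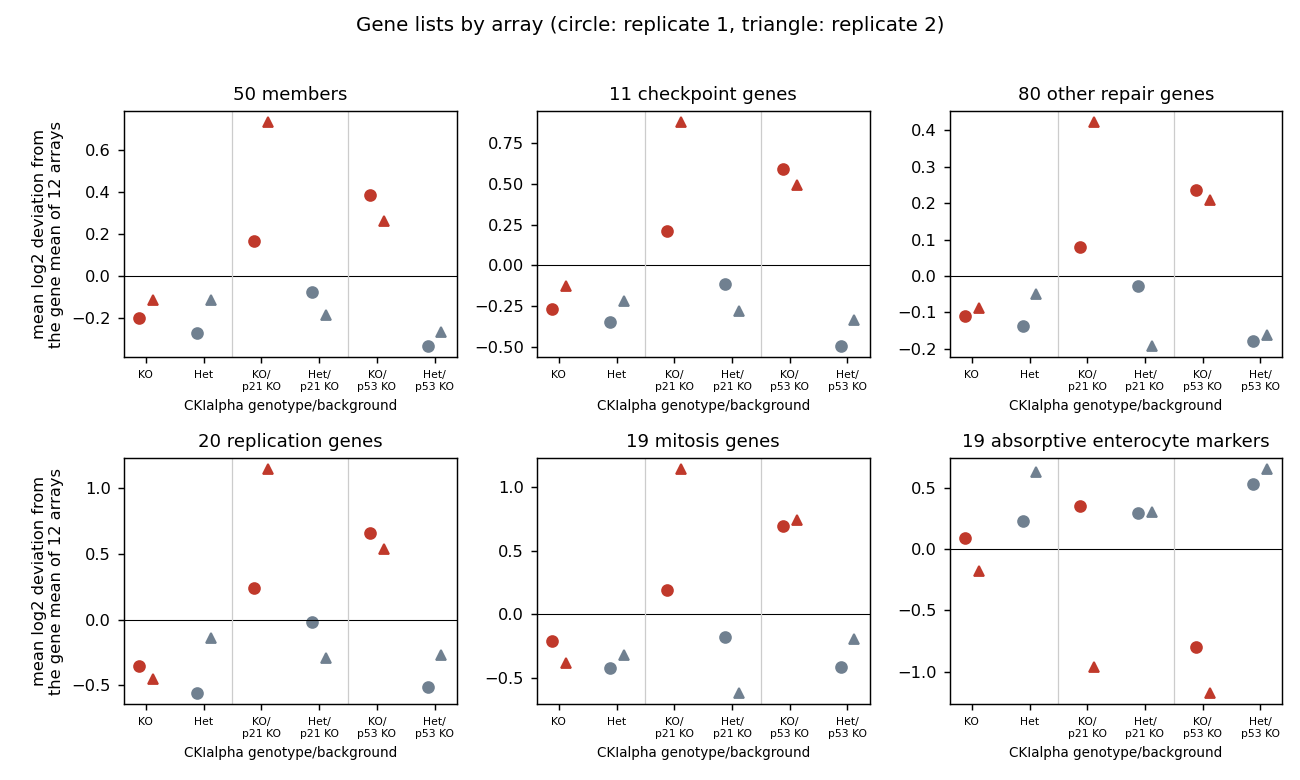
Mean log2 deviation from each gene's mean over 12 arrays, for the members, the checkpoint genes, the other repair genes and 3 lists of replication, mitosis and absorptive genes, by CKIalpha genotype and background, with circles for replicate 1 and triangles for replicate 2. The members lie at 0.17 and 0.73 in CKIalpha KO/p21 KO and at 0.26 and 0.39 in CKIalpha KO/p53 KO, above all other groups, and the lowest absorptive level is on a CKIalpha KO/p53 KO array.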

How the data were processed

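RNA of 13 enterocyte samples was measured on Affymetrix expression arrays. Per the labels' protocols, the authors extracted intensities with Affymetrix Expression Console 1.1 (RMA Sketch) and normalized them by median intensities, so the deposited values are RMA intensities, read here as log2. The base of the logarithm is not stated and was taken from the values, whose array medians are near 5 in each case. A shift shared by most genes would be removed by such normalization. Precision is limited by the 2 arrays per group. The labels call these biological replicates without naming animals, so p-values measure only the spread between these samples.

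Of 35556 probe sets, 21789 carried 1 symbol, 1621 several and 12146 none. The probe set with the highest mean stood for a gene, and genes above the array's 25th percentile on at least 2 of 12 arrays were tested. A limma 3.58.1 fit (R 4.3.3) had 1 coefficient per group over the 12 arrays, with 6 residual degrees of freedom, and p-values were adjusted by Benjamini and Hochberg within each comparison. The code was tested on simulated data.

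Members, roles and lists were chosen with earlier results of these data known. Shown array by array were up to 4 members per role with the smallest p in the average KO effect, up to 2 called in an interaction or background comparison, and the Gadd45 genes. Of the 80 other repair genes, up to 4 per direction with the smallest p among those called were named; Chek1, Chek2 and Ddb2 were added after their values were seen. Alternatives were no filter, quantile normalization, an intensity trend, array weights, a replicate block, the mean over probe sets, only the groups compared, and each array left out. Sequences and the window table are from RefSeq, GRCm38.p6. Replicate numbers were checked for pairing by weak correlations. The main fit holds no term for them or for the Xist pattern that follows them.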

Additional observations from a re-analysis of the deposited data

Results flagged for a closer look

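The array whose labels disagree (CKIalpha KO/p53 KO in the title, CKI KO in the genotype and source fields) was used in no comparison. On it, 29 of the 50 members lay above all 6 Het arrays, against 21.5% of all genes. Below all 6 lay 2 members, against 3472 of 16721 genes. The mean deviation of the members from their 12-array means was 0.10 on this array, against 0.26 to 0.39 on the CKIalpha KO/p53 KO arrays, 0.17 to 0.73 on the CKIalpha KO/p21 KO arrays and -0.20 to -0.11 on the CKIalpha KO arrays. Polk read 6.79 and Ercc5 7.60 on it, against 5.85 and 5.71, and 6.58 and 6.90, on the CKIalpha KO/p53 KO arrays. Its group was not inferred from these values.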

How the results depend on the processing

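No called result changed direction under any alternative run; the median over members in CKIalpha KO/p53 KO against CKIalpha KO/p21 KO, which has no test, lay between -0.37 and 0.22. Counts of called members moved by more than 1.5 times in these cases. Higher in CKIalpha KO/p21 KO against CKIalpha Het/p21 KO were 3 members, 1 with array weights and 0 with only the groups compared. With only the groups compared, which leaves fewer arrays to estimate the spread, the p53 interaction called 1 member higher in place of 0, and CKIalpha KO/p53 KO against CKIalpha KO/p21 KO called 0 lower in place of 2. Correlations of same-numbered deviations ran from -0.162 to 0.248 over 15 pairs of groups, while the Xist pattern followed the replicate number in every group. The replicate block called 2 members higher in CKIalpha KO/p53 KO against CKIalpha KO in place of 0 and moved no other count by over 1.5 times. With each array left out in turn, the counts ranged as follows: CKIalpha KO/p53 KO against CKIalpha Het/p53 KO 0 to 27 higher and 0 to 1 lower, CKIalpha KO/p21 KO against CKIalpha Het/p21 KO 0 to 33 higher, the average effect 13 to 36 higher and 0 to 2 lower, and the p53 interaction 0 to 2 higher. Against CKIalpha KO they were 0 to 16 higher and 0 to 1 lower for CKIalpha KO/p53 KO, and 0 to 25 higher for CKIalpha KO/p21 KO, and CKIalpha KO/p53 KO against CKIalpha KO/p21 KO gave 0 to 2 lower. All other counts stayed at 0 in these fits. The cause of these moves was not tested. Dim signals limit what can be read for the 13 members that were not above the array median on all 12 arrays.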
